A study of Mus musculus with 2 samples.

Results

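The genes described here are 10 mouse genes through which macrophages sense surplus cholesterol and pass it on: the liver X receptors Nr1h2 and Nr1h3, the transporters Abca1, Abcg1 and Abca6, the apolipoproteins Apoe, Apoc1 and Apoc2, the lipase Lpl, and Mylip, which removes lipoprotein receptors. They form a list of names rather than a class picked by a threshold on these values, and all 10 were found among the 54446 genes counted. The RNA was from macrophages raised in culture out of bone marrow, from mice of the C57BL/6 strain. One group had no treatment (the control) and the other had IL-36 gamma, an inflammatory signalling protein related to interleukin-1. The sources used here do not give the dose, the duration, the growth factor that raised the cells or whether marrow was pooled. Each group is 1 library, so the differences have no replicate check and carry no p-value.

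Liver X receptors are nuclear receptors that bind oxysterols, oxidised forms of cholesterol, and act on DNA as dimers with retinoid X receptors. In macrophages they switch on genes that load cholesterol onto lipoprotein particles outside the cell and, through Mylip, reduce its uptake. The sterol synthesis pathway does the opposite: it is driven by SREBP2, the product of Srebf2, when membrane cholesterol is low.

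The libraries held 17426367 (control) and 17267900 (IL-36 gamma) counts in genes. Ratios below divide the scaled IL-36 gamma count by the scaled control count, and each has an exact 95% Clopper-Pearson interval. The interval covers counting error only, since sequenced copies are not independent molecules and culture variation was not measured. A gene was measured when its mean count was at least 10, which 14379 genes reached, and it is called above or below 1 when its whole interval lies on that side. Macrophage markers summed to 30644 CPM (counts scaled so that libraries share 1 total) in the control and 30695 CPM after treatment, and all 10 of them were measured, 4 above 1 and 5 below. Neutrophil markers summed to 152 and 246 CPM (7 of 10 measured above 1), monocyte markers to 278 and 189 CPM (3 above and 2 below of 7), and dendritic cell markers to 47.7 and 33.7 CPM (Siglech and Cd209a at 0 in both libraries). That dendritic sum was mostly Itgax (644 and 332 counts), while Batf3, the other measured marker, lay above 1 (1.34). The monocyte sum was mostly F13a1 (3782 and 2094 counts), which lay below 1 with Fn1 (595 and 317). The monocyte markers above 1 were Ly6c2 (1.96), Plac8 (2.83) and Ccr2 (1.28). Lymphocyte markers summed to 22.7 and 29.3 CPM (Cd3e, Trbc2 and Nkg7 at 0 in both), nearly all from Cd79b (384 and 490 counts), while Cd79a had 16 and 3. The part of these differences in the results below was not tested. In such bulk RNA, fewer cells of a type and less RNA per cell cannot be told apart.

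Abca1, Apoe, Lpl and Abca6 were lower after IL-36 gamma, Apoc1 and both receptors were higher, and the intervals of Abcg1 and Mylip included 1. Of the 9 measured genes, 3 lay above 1, against 20.2% of all measured genes, and 4 lay below 1, against 16.5%. The median log2 ratio of the 9 was 0.02, beside 0.01 over all measured genes. Of the 7 members that average 1000 counts or more, 2 lay above 1, against 44.3% of genes that abundant, and 3 lay below, against 22.9%. The genes therefore did not share a direction. Only Abca6 had its whole interval beyond 2-fold, on the lower side, which 0.0904% of measured genes did (0.0765% on the higher side). It averaged 14 counts and reached the minimum of 10 only through the control library, where it is high, so its place on the lower side is favoured by that minimum. The count beyond 2-fold was 0 with a 99% interval or when a mean of 50 counts was required. With a bound of 1.5-fold, Abca1 and Abca6 lay wholly below, as did 0.529% of all measured genes.

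**Figure D1:**
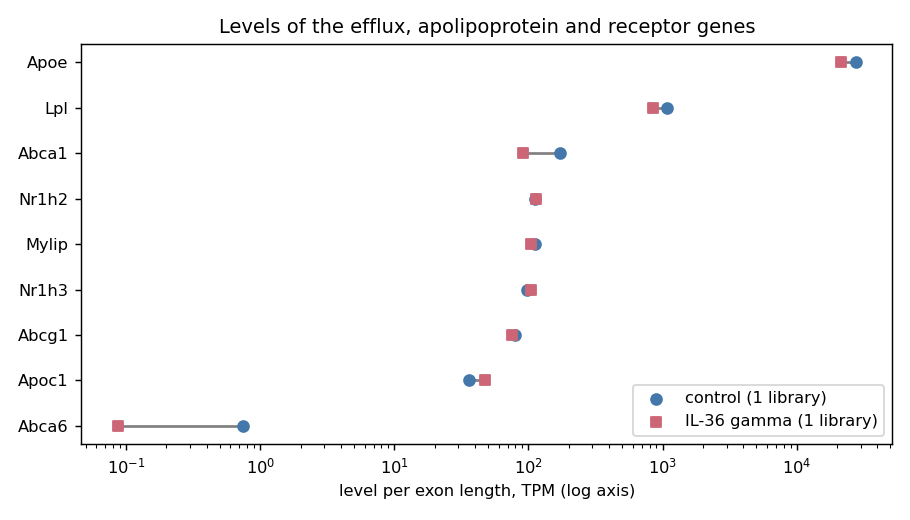
Level of 9 of the genes in each library, in TPM (counts divided by exon length and scaled to a fixed total per library, log axis), with circles for the control and squares for IL-36 gamma, 1 library each. Apoe stands highest in both libraries (27508 and 21430.5 TPM), the widest gaps between libraries are those of Abca6 and Abca1, and Apoc2, with 0 counts in the control, is left out.

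The receptors were both present at similar levels. Nr1h2, which encodes LXR beta (ENSMUSG00000060601.13; mm10 chromosome 7, 44549616 to 44553951, minus strand), had 2312 counts in untreated cells and 2424 after IL-36 gamma. Its ratio was 1.10 (1.04 to 1.17). Nr1h3, which encodes LXR alpha (ENSMUSG00000002108.10; chromosome 2, 91184061 to 91202834, minus strand), had 1506 and 1673 counts and a ratio of 1.17 (1.09 to 1.25). Both receptors were slightly higher after treatment. The interval of Nr1h2 included 1 with scaling by library totals and with the trend on exon length removed, at a ratio of 1.06 each time, while Nr1h3 kept its side under 7 other scalings. Per length, Nr1h3 stood at 0.869 of the Nr1h2 level in the control and at 0.920 with IL-36 gamma. This balance differed by a factor of 1.06 (0.967 to 1.16), an interval that includes 1.

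Among 20 measured receptor partners and coregulators, 1 lay above 1 (5%) and 13 below (65%), beside 20.2% and 16.5% of all measured genes. Their median log2 ratio was -0.17. Rxrb, a retinoid X receptor that pairs with LXR, had 2190 and 2436 counts, a ratio of 1.17 (1.10 to 1.24). Rxra, its better known relative, had 2544 and 2198 counts, a ratio of 0.907 (0.856 to 0.961). Relative to Rxra, Nr1h3 was higher with IL-36 gamma by a factor of 1.29 (1.17 to 1.41), a comparison free of scaling between libraries but not of the trend on length. Those below 1 included Ogt, an enzyme that attaches a sugar to nuclear proteins (0.724, 0.692 to 0.757), the acetyltransferase gene Ep300 (0.749, 0.703 to 0.798) and the coactivator Ncoa2 (0.803, 0.734 to 0.879). These are long transcripts, with a median exon length of 7704.5 bases over the 20, and long transcripts were lower as a class: of 1155 measured genes with 10000 exonic bases or more, 561 lay below 1 and 58 above.

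Abca1 moves cholesterol and phospholipid from the cell onto lipid-poor apolipoprotein A-I. It had 11063 counts in untreated cells and 5999 after IL-36 gamma, or 622 and 354 CPM. The IL-36 gamma library was 1.76-fold lower (1.70 to 1.81), a ratio of 0.569 (0.551 to 0.587). The gene is ENSMUSG00000015243.4, on mm10 chromosome 4, 53030787 to 53159895, minus strand. Among the 3455 abundant genes, those averaging 1000 counts or more, only Mmp12, a macrophage elastase, Il1rn, the interleukin-1 receptor antagonist, and Vcam1, an adhesion molecule, had lower ratios (0.409, 0.483 and 0.533). These 3 were named after their values were seen. A bound of 1.5-fold on the lower side was passed by 0.405% of those genes.

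Exon length moved with the ratio across the whole library, and Abca1 has 10363 exonic bases. Of 407 abundant genes with 10000 exonic bases or more, 248 lay below 1, with a median log2 ratio of -0.15. Abca1, at -0.81, was the lowest of these 407. When the trend on length was removed, its ratio was 0.620. The part of length in the Abca1 value was otherwise not tested. Lpl, with 10478 exonic bases, ranked 151st from the lowest in the same class.

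**Figure D2:**
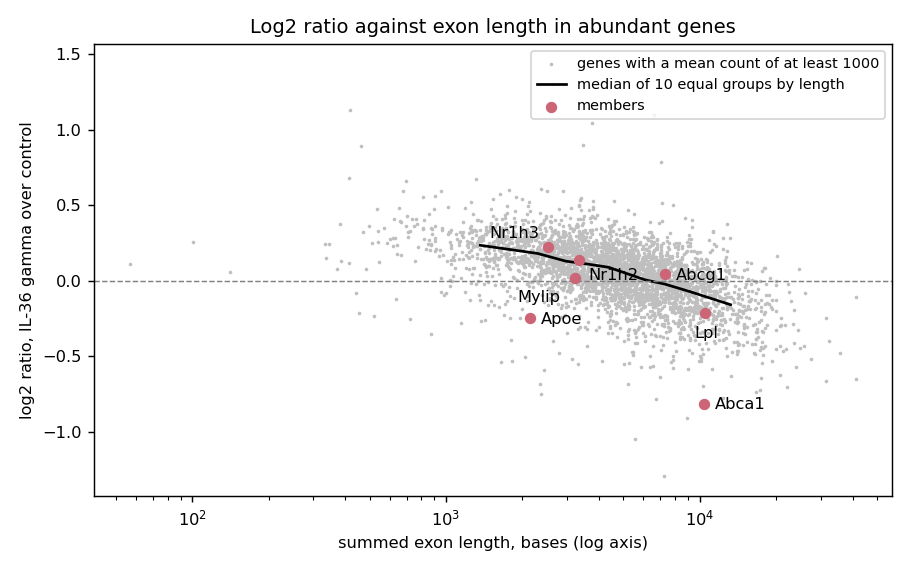
Log2 ratio, IL-36 gamma over control, against summed exon length in bases (log axis) for genes averaging 1000 counts or more; the line joins the medians of 10 equal groups by length, and large points are the members of this abundance. The line declines with length, Lpl (-0.21) lies near it and Abca1 (-0.81) far below it.

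The proximal promoter of Abca1 is known to carry an LXR element, so the bases just upstream of its start are shown. They come from RefSeq (GRCm38.p6, chr4:53159896-53160145, minus strand), 250 bases up to the start site. Capitals mark an E-box (CACGTG) at -147 to -142 and, at -67 to -53, a match to the LXR element, read from the other strand as GGTTA and CGGTCA with 4 bases between them.

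Abca1: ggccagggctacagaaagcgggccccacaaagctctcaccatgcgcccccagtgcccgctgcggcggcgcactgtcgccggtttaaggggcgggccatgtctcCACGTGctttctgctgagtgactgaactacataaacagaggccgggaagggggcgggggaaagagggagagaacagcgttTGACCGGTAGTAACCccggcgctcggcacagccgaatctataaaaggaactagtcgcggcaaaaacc

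The form was taken from the known Abca1 element, so its match there holds by construction. Both strands of 32851 upstream windows of 250 bases were searched, and 4 windows (0.0122%) held it, those of Abca1, Fasn, Srebf1 and Prrg4. Fasn encodes fatty acid synthase and Srebf1 the regulator of fatty acid synthesis, both LXR targets. They are shown over 61 bases so that the shared element, in capitals, can be compared (chr11:120824735-120824795 and chr11:60210616-60210676, both minus strand).

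Fasn: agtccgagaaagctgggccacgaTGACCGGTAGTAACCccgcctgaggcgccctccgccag
Srebf1: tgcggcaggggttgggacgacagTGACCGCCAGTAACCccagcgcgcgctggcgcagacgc

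Fasn holds the same 15 bases as Abca1, read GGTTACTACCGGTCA from the other strand, while Srebf1 reads GGTTACTGGCGGTCA and differs in the spacer. The genes that share the element did not share a direction in their whole-gene counts. The Srebf1 window lies within the gene, which begins at 60222581 on the minus strand, so it precedes an internal start. The Srebf1 count pools transcripts from all starts and does not measure that start by itself. Fasn had 861 and 759 counts, a ratio of 0.925 (0.838 to 1.02), and Srebf1 had 1505 and 1577 counts, a ratio of 1.10 (1.02 to 1.18), beside 0.569 for Abca1. Prrg4, which like Fasn was named after its values were seen, had 29 and 32 counts, a ratio of 1.16 (0.679 to 1.98). The direct repeat of AGGTCA and AGGTCA with 4 bases between them was in 5 windows (0.0152%) and in none of the 9 windows of the 6 members that have one. The E-box was in 6.02% of windows, and Abca1 was the 1 member with it. Such a match is a description of letters only.

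Abcg1 passes cholesterol to mature high-density lipoprotein and often moves with Abca1. It is ENSMUSG00000024030.6, on chromosome 17, 31057675 to 31117988, plus strand. It had 3562 counts in untreated cells and 3495 after IL-36 gamma, a ratio of 1.03 (0.983 to 1.08). Over 7 other scalings the ratio ran from 0.982 to 1.08, and its interval lay above 1 only with the trend on exon length removed. Per length, Abca1 stood at 2.19 times the Abcg1 level in untreated cells and at 1.21 times after IL-36 gamma. The ratio of the pair was lower by a factor of 0.553 (0.522 to 0.585), which is free of scaling between libraries but not of the trend on length. The 2 efflux transporters thus differed beyond counting error, and Abcg1, at 7298 exonic bases, is the shorter.

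Abca6, a poorly known ABCA transporter reported as cholesterol responsive in macrophages, is ENSMUSG00000044749.13, on chromosome 11, 110176820 to 110251776, minus strand. It was barely expressed: 25 counts in untreated cells and 3 after IL-36 gamma, or 1.41 and 0.177 CPM. Its ratio was 0.126 (0.0243 to 0.413), which rests on few counts. No rank is read from it, because the gene was counted as measured only through its control value. Its neighbour Abca9, of the same ABCA gene cluster, had 561 and 333 counts, a ratio of 0.623 (0.542 to 0.715). Abca5, on its other side, had 28 and 18 counts, a ratio of 0.675 (0.352 to 1.26). Abca8b, named after its values were seen, had 141 and 105 counts, a ratio of 0.782 (0.601 to 1.01). Relative to Abca9, Abca6 was lower by a factor of 0.202 (0.0388 to 0.671). Fibroblast and stroma markers were also lower, summing to 13.3 and 7.97 CPM (ratio 0.60, 0.482 to 0.745), with Pdgfra and Lum at 0 in both libraries. Their part in the Abca6 and Abca9 values was not tested. Over the 9 measured genes of the wider ABCA and ABCG list, 0 lay above 1 and 4 below: Abca9, Abca2 (0.850), Abca3 (0.882) and Abcg2 (0.667). These shares were 0% and 44.4%, beside 20.2% and 16.5% of all measured genes. The 9 are long transcripts, with a median exon length of 8153 bases. Among 1437 measured genes of similar length (median 7963 bases), 10.5% lay above 1 and 27.9% below.

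Apoe is the apolipoprotein that macrophages secrete with cholesterol. It is ENSMUSG00000002985.16, on chromosome 7, 19696109 to 19699188, minus strand, and was the fourth most abundant gene per length in both libraries. It had 363081 counts in the control, 2.08% of all gene counts, and 291222 with IL-36 gamma, 1.69%. Its ratio was 0.842 (0.838 to 0.846). Its exons span 2138 bases, a short transcript in a class whose median log2 ratio was 0.10, so it stood against the trend on length. Apoe made up 99.3% of the summed TPM of 21 apolipoprotein genes in untreated cells and 98.8% after IL-36 gamma.

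Apoc1, a small apolipoprotein encoded just downstream of Apoe (ENSMUSG00000040564.14; chromosome 7, 19689481 to 19692660, minus strand), had 167 and 225 counts. Its ratio was 1.41 (1.15 to 1.74), so it was higher with IL-36 gamma while Apoe was lower. Relative to Apoe, it was higher by a factor of 1.68 (1.37 to 2.06). Apoc2, the cofactor that activates lipoprotein lipase (ENSMUSG00000002992.17; chromosome 7, 19671579 to 19677941, minus strand), had 0 counts in untreated cells and 2 after IL-36 gamma. Both are under the floor of 3 counts, 0.169 CPM in the control and 0.177 CPM with IL-36 gamma, so no fold is given. Of its 813 exonic bases, 646 overlap the predicted gene Gm44805 on the same strand, where reads may be ambiguous between genes, so its level is uncertain. Apoc4, between Apoc1 and Apoc2, had 11 and 16 counts, a ratio of 1.53 (0.665 to 3.64). The flanking genes Nectin2 (1.34, 1.23 to 1.47), Tomm40 (1.08, 0.993 to 1.17) and Clptm1 (1.22, 1.16 to 1.27), named after their values were seen, did not share the direction of Apoe.

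**Figure D3:**
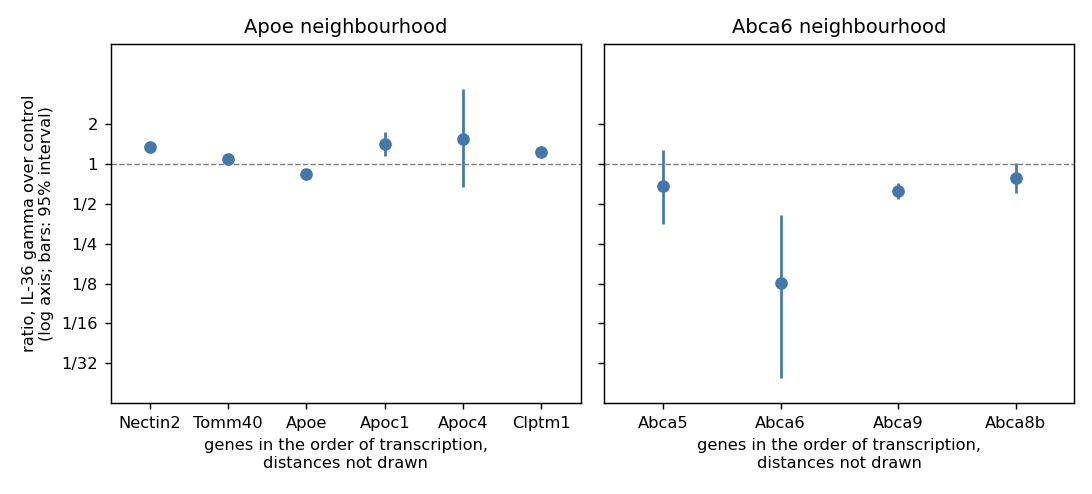
Ratio, IL-36 gamma over control, of genes beside Apoe (left) and Abca6 (right) in order of transcription, on a log axis, with bars for the 95% counting interval. Apoe alone lies wholly below 1 among the measured genes of its neighbourhood. The 3 measured genes beside Abca6 have ratios under 1, and 1 of them, Abca9, lies wholly below. Abca6 itself counts as measured only through its control value, where it is high.

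Of 13 other measured apolipoprotein genes, 5 lay above 1 (38.5%) and 0 below (0%), beside 20.2% and 16.5% of all measured genes. Their median log2 ratio was 0.35. They are short transcripts, with a median exon length of 1801 bases. Among 1437 measured genes of similar length (median 1539 bases), 30.8% lay above 1 and 7.59% below. Apoa1, the acceptor for Abca1, had 230 and 322 counts, a ratio of 1.47 (1.24 to 1.75). Apoc3, an inhibitor of lipoprotein lipase, had 69 and 107 counts (1.63, 1.19 to 2.24), Apoa2, a second protein of high-density lipoprotein, had 292 and 356 (1.28, 1.09 to 1.5), and Apob, the backbone of low-density lipoprotein, had 56 and 82 (1.54, 1.08 to 2.20). Apol9b was the fifth, with 21 and 40 counts. The first 4 are known as plasma proteins made by the liver, and hepatocyte markers were also higher, with sums of 105.5 and 140.7 CPM (ratio 1.33, 1.25 to 1.42), 4 of 6 measured above 1, among them Alb, 1060 and 1381 counts. The part of these transcripts in the apolipoprotein values, that of Apoc1 included, was not tested, and Apoa1 and Apoa2 stand in both lists.

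Lpl, which releases fatty acids from triglyceride in lipoproteins, is ENSMUSG00000015568.16, on chromosome 8, 68880491 to 68907448, plus strand. It had 69357 counts in untreated cells and 57013 after IL-36 gamma, the second highest level per length after Apoe in both libraries. Its ratio was 0.863 (0.853 to 0.872). The ratio of Apoe to Lpl differed between libraries by a factor of 0.976 (0.964 to 0.988). These transcripts differ in length, and with the trend on exon length removed the ratio of Apoe was 0.782 and that of Lpl 0.941. Abca1 was lower than both, by factors of 0.676 (0.655 to 0.698) relative to Apoe and 0.660 (0.638 to 0.682) relative to Lpl. Adipocyte markers summed to 35.9 and 24.3 CPM, nearly all from Fabp4 (624 and 402 counts), with Adipoq, Cidec, Lep and Cfd at 0 in both libraries, and their part in the Lpl value was not tested. Among 13 measured partners of Lpl and other lipases, 2 lay above 1 and 2 below (15.4% each), beside 20.2% and 16.5% of all measured genes. Angptl4, a secreted inhibitor of Lpl, had 643 and 739 counts, a ratio of 1.21 (1.08 to 1.34), and Pnpla2, the lipase of fat droplets, 3032 and 3039 (1.05). Lipa, the lysosomal lipase, was at 0.942 and Sel1l, which helps Lpl leave the endoplasmic reticulum, at 0.924.

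Mylip, a ubiquitin ligase that marks lipoprotein receptors for destruction (ENSMUSG00000038175.10; chromosome 13, 45389742 to 45412022, plus strand), had 2225 and 2146 counts. Its ratio was 1.01 (0.954 to 1.07), so a difference was not detectable at this depth. Vldlr and Lrp8, receptors that it is known to target, named after their values were seen, had ratios of 0.796 (0.644 to 0.982) and 0.940 (0.714 to 1.24). Over 17 measured lipoprotein receptor genes, 4 lay above 1 (23.5%) and 8 below (47.1%), beside 20.2% and 16.5% of all measured genes. Those above included Scarb1 (1.17), Lrp10 (1.11) and Lrpap1 (1.08), and those below Lrp1 (0.736), Lrp6 (0.755), Sort1 (0.793) and Cd36 (0.803). Among genes averaging 1000 counts or more, 44.3% lay above 1 and 22.9% below. The 17 receptor genes had a median exon length of 7569 bases, and long transcripts were lower as a class. The part of length in these values was not tested. Abca1 was lower even than Lrp1, the long receptor gene, by a factor of 0.773 (0.747 to 0.799).

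The order of levels per length was as follows. In the control it ran Apoe, Lpl, Abca1, Nr1h2, Mylip, Nr1h3, Abcg1, Apoc1, Abca6 and Apoc2, where Nr1h2 and Mylip did not differ beyond counting error (1.0, 0.945 to 1.06). With IL-36 gamma Abca1 moved from the third place to the sixth, behind Nr1h2, Nr1h3 and Mylip, of which Nr1h3 and Mylip did not differ beyond counting error (1.0, 0.940 to 1.07). A level in TPM depends on the library's own composition, so differences between libraries are read from the ratios.

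Other LXR targets were mixed. Of 19 measured, 6 lay above 1 (31.6%) and 4 below (21.1%), beside 20.2% and 16.5% of all measured genes. Their median log2 ratio was 0.10. Scd2, a fatty acid desaturase, had 2430 and 2956 counts (1.28, 1.21 to 1.35), Smpdl3a, a secreted nucleotide phosphodiesterase, 6413 and 7462 (1.22, 1.18 to 1.26), and Pltp, a phospholipid transfer protein, 13666 and 14770 (1.13, 1.11 to 1.16). Lpcat3 (1.11), Srebf1 (1.10) and Cd5l (1.07) were the others above 1. Mertk, a receptor for engulfing dead cells, was at 0.786 (0.748 to 0.825), Acaca at 0.821, Arl4c at 0.859 and Rara at 0.871. Among the best known LXR targets, Abca1 lay below 1, Srebf1 above it, and Abcg1 and Mylip at it within counting error. Of the other members, receptors aside, Apoe (0.842), Lpl (0.863) and the barely expressed Abca6 lay below 1, and Apoc1 (1.41) above it.

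In the opposite arm, sterol synthesis, the intervals of 63.2% of measured genes included 1, beside 63.3% of all measured genes. Of 19 measured genes, 5 lay above 1 (26.3%, beside 20.2% of all measured genes) and 2 below (10.5%, beside 16.5%). Their ratios were over 1 in 16 of 19, with a median log2 ratio of 0.17, a difference of 0.15 from the median of the 9 members. The median interval bounds of single genes in the 2 lists span -0.21 to 0.45 around it, a measure of counting error per gene. They do not give the spread of a difference of medians, so no conclusion is drawn from them. Cyp51, a sterol demethylase, had 158 and 203 counts (1.35, 1.09 to 1.67). Msmo1, another enzyme of the pathway, had 343 and 409 (1.25, 1.08 to 1.45), and Pmvk and Ebp were at 1.25 and 1.17. The intervals of 2 other enzymes of the pathway included 1. Hmgcs1, which acts early, had 440 and 477 counts (1.14, 0.998 to 1.30) and Sqle, which oxidises squalene, had 211 and 226 (1.12, 0.928 to 1.36). Fdft1, the enzyme that makes squalene, was lower, with 2376 and 1986 counts (0.877, 0.826 to 0.932), as was Tm7sf2 (0.817, 0.670 to 0.996). Summed over the list, counts gave a ratio of 1.03 (0.994 to 1.06). Of 13 measured genes of SREBP control, 4 lay above 1 (Insig1 1.17, Scap 1.14, Srebf1 1.10 and Srebf2 1.09) and 2 below (Mbtps2 0.799 and Mbtps1 0.893). These shares were 30.8% and 15.4%, beside 20.2% and 16.5% of all measured genes.

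**Figure D4:**
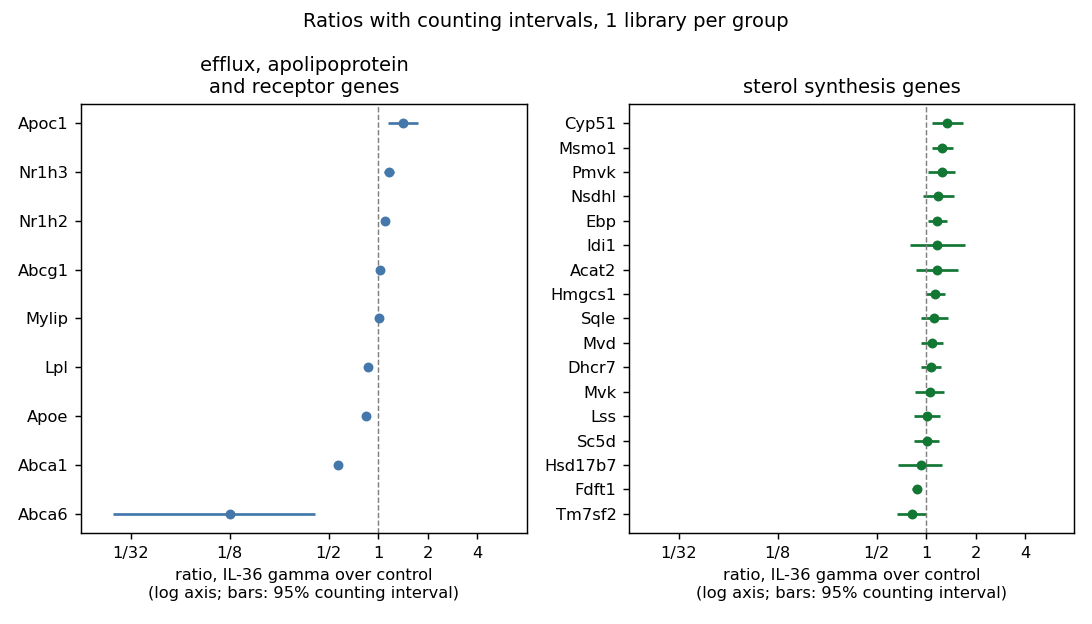
Ratio, IL-36 gamma over control, with 95% counting intervals on a log axis, for the 9 measured efflux, apolipoprotein and receptor genes (left) and 17 of the 19 measured sterol synthesis genes (right). The left genes spread from 0.126 to 1.41 and the right ones from 0.817 to 1.35, with 14 of the 17 over 1 and 4 of them wholly above it.

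Genes that store and move cholesterol within the cell were divided, with 7 of 24 above 1 (29.2%) and 9 below (37.5%). Over all measured genes these shares were 20.2% and 16.5%, and 44.3% and 22.9% among those averaging 1000 counts or more. Soat2, an enzyme that esterifies cholesterol, had 35 and 70 counts (2.10, 1.38 to 3.25), whereas Soat1, the macrophage form, had 4316 and 3909 (0.951, 0.910 to 0.993). Npc2, which carries cholesterol in lysosomes, had 21591 and 24404 counts (1.19, 1.16 to 1.21), and its partner Npc1 had 4920 and 3925 (0.837, 0.803 to 0.873). Gramd1a (1.19) and Gramd1b (0.692, 0.646 to 0.740), carriers of membrane cholesterol, also lay on opposite sides. Tspo, a mitochondrial cholesterol-binding protein, was at 1.26, and Cav1 and Osbpl11 were at 0.818 and 0.839. Several of the genes named beyond the members, Pltp, Lpcat3, Srebf1, Scap, Fdft1, Hmgcs1, Cyp51, Npc1, Gramd1a, Gramd1b, Tspo, Abca3, Abca8b, Lrp10, Sort1, Nectin2 and Tomm40 among them, share exonic bases with a gene on the other strand, and their counts are uncertain to that extent. None of the 10 members does.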

How the data were processed

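Total RNA from 2 libraries (untreated and IL-36 gamma) was sequenced after Illumina preparation. The authors deposited raw, unscaled counts for each Ensembl gene. HTSeq counted reads aligned to mm10 with STAR 2.5.0a, and Trim Galore 0.6.1 and FastQC 0.11.8 were also used, per the submitters' processing notes. The sources used here do not give the HTSeq version, annotation release or strand setting. Rows that name no gene were kept out of library sizes: 47.2% and 46.3% of counts had no feature, 1.79% and 1.84% were ambiguous and 6.65% and 6.92% not unique. Symbols, positions and exon lengths came from GENCODE M21 (54409 of 54446 IDs).

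Scaling used TMM factors (1.02 and 0.981; edgeR 4.0.16, R 4.3.3). With 1 library a group there are no residual degrees of freedom, so no test was run. Ratios, Clopper-Pearson intervals and log2 values with a prior count of 2 were computed in Python 3.11.15 with scipy 1.17.1. The interval was also run on simulated Poisson counts. These hold counting error alone, so that run cannot speak to culture variation or to copies that are not independent. Upstream bases came from RefSeq (GRCm38.p6), 250 bases before each start site, both strands searched.

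Members and lists were chosen with earlier results of these data known. Named genes were all 10 members, up to 4 genes on each side of 1 in each list with 50 counts or more in 1 library, and a listed group of lipid genes. Alternatives were library totals, DESeq2 1.42.0 size factors, upper quartile scaling, trends on length or expression removed (lowess span 0.3), protein-coding genes only, other filters, bounds, priors and summaries. The values of some members of the wider lists are not reported here, though counts and medians over those lists include them.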

Additional observations from a re-analysis of the deposited data

How the results depend on the processing

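No paired analysis was possible because each group holds 1 library; for the same reason no library could be left out. The ratio of Abca1 was 0.569 and became 0.547 with library totals, 0.620 with the trend on exon length removed and 0.527 with the trend on mean expression removed. Of the 9 measured members, 1 lay past 2-fold; 0 did with a 99% interval, 0 when a mean of 50 counts was required, where Abca6 is not measured, and 2 with a 1.5-fold bound. Summarised by means, the members gave -0.30 on the log2 scale and sterol synthesis stood 0.48 above them; with Abca6 left out, a choice made after seeing the data, these were -0.04 and 0.22. Under 7 other scalings, 1 of them (TMM over genes averaging 10 counts or more) chosen after seeing the data, Abca1, Abca6, Apoe, Apoc1, Nr1h3, Lpl and Mylip kept their side. Abcg1 lay above 1 with the length trend removed (1.08), and the interval of Nr1h2 included 1 with library totals (1.06) and with the length trend removed (1.06). Counting depth limits Abca6 and Apoc2, and the absence of replicates limits every value.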

Other observations

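Oxysterols are the ligands of liver X receptors, and 5 of 8 genes of their metabolism were measured. Cyp27a1, which makes an oxysterol in mitochondria, had 365 counts in untreated cells and 259 after IL-36 gamma, a ratio of 0.745 (0.633 to 0.876). Ch25h, which makes 25-hydroxycholesterol, had 52 and 59 counts, a ratio of 1.19 (0.806 to 1.76), and overlaps a gene on the other strand. None of the 5 lay above 1 and 1 (20%) lay below, beside 20.2% and 16.5% of all measured genes. Their median log2 ratio was -0.42, on few counts.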
